A study of Homo sapiens with 4 samples.

Results

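The ligands of the TNF superfamily were followed across 4 expression arrays of THP-1 cells, a human monocytic line established from acute leukaemia. The 10 genes TNF, LTA, LTB, TNFSF8, TNFSF9, TNFSF10, TNFSF13, TNFSF13B, TNFSF14 and TNFSF15 were taken by name, not by a threshold on their values. All 10 had at least 1 probe set of their own, among 19775 genes so represented. A probe set is a group of short probes that reads part of a transcript. In all, 22 probe sets named a member, 18 of them that member alone and 4 together with a neighbouring gene.

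The arrays held resting cells, Pam3CSK4-treated cells, and cells treated in that way and then held with platelet-like particles for 12 h or for 24 h. The agent, Pam3CSK4, is a lipopeptide made to engage the TLR1 and TLR2 receptor pair, and per the series design both co-cultures had received it. The treatment time of the Pam3CSK4 array and the source cells of the particles are not given in the sources used here, so time and particles cannot be told apart in a comparison with that array. The titles of the co-culture samples carry 13 and 25, while their descriptions and source labels give 12 h and 24 h, which were used. Each condition had 1 array and THP-1 is a single line, so no difference could be set against a spread between cultures and no test was made.

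TNF superfamily ligands are mostly membrane-bound proteins that assemble as trimers, and several are shed by proteases. They engage receptors of the TNF receptor superfamily, which signal through TRAF adaptors to NF-kB and MAP kinases or, where they carry a death domain, to caspases. In monocytes and macrophages TNF is an early product of Toll-like receptor signalling, and TNFSF13B (BAFF) and TNFSF13 (APRIL) are survival factors that myeloid cells supply to B cells.

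The values are log2 intensities. The median over all probe sets and arrays, 6.19, served as the filter level, and a gene entered a comparison where its representative probe set, that of highest mean, reached it on at least 1 array. This left 13410 genes, the 10 ligands among them. The 3' control probe set of GAPDH exceeded the 5' one, as it does more in degraded RNA, by 2.16 log2 for resting cells and by 0.59 to 0.92 on the other arrays. For ACTB the same gap was wide on every array: 3.41 log2 at rest, 2.91 with Pam3CSK4, 3.17 at 12 h and 2.90 at 24 h. Of 10 monocyte markers, 8 had a probe set of their own and 7 of these reached the filter level on every array, led by LYZ, while FCGR1A lay under it. Summed on the linear scale, they gave 11513 for resting cells, 17013 with Pam3CSK4, and 12546 and 18196 after 12 h and 24 h of co-culture. That sum mostly follows LYZ, which read 12.98, 13.70, 13.29 and 13.81 log2 in the same order. The median of the 8 markers was 8.04, 8.80, 8.79 and 8.91 log2, so the panel did not share the lower sum at 12 h. For 10 of 12 megakaryocyte and platelet markers the linear sum was 815 at rest, without particles, 676 with Pam3CSK4, 846 at 12 h and 731 at 24 h. GP9, the highest of them, read 7.58 log2 at rest and 7.51 at 12 h. PPBP lay between 3.40 and 3.79 log2 and PF4 between 5.72 and 5.97. For 11 of 12 lymphocyte markers the sum ran from 1322 to 1770. NKG7, at 9.14 to 10.02 log2, was the highest of them on every array, while CD3G stayed between 4.09 and 4.71 log2 and the B-cell marker MS4A1 between 4.71 and 4.998. The sum of 6 of 12 erythroid markers was 409 in resting and 411 in Pam3CSK4-treated cells, 507 after 12 h and 531 after 24 h, where HBE1 stood at 7.50 log2. For 8 fibroblast and endothelial markers it ran from 592 to 837, with LUM at 3.40 log2 on the resting array and 7.41 to 7.997 on the others. The part of RNA integrity or of these markers in the ligand differences was not tested.

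**Figure D1:**
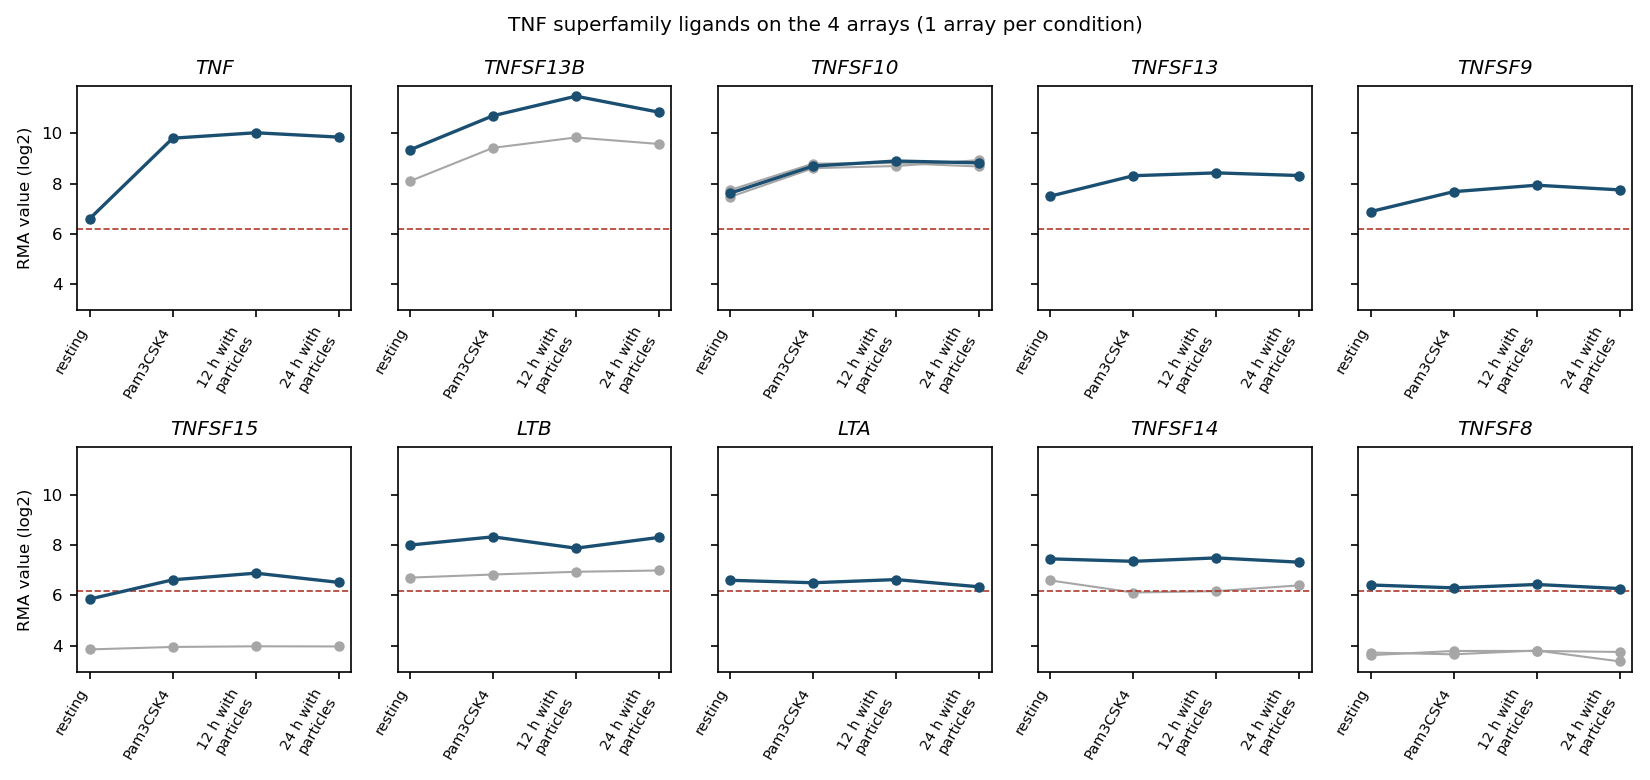
RMA values (log2) of every probe set naming 1 ligand alone on the 4 arrays, 1 panel per gene. Dark points are the representative probe set, grey points the others, the dashed line the filter level of 6.19, and the lines only join the points of a probe set. TNF, TNFSF13B, TNFSF10, TNFSF13, TNFSF9 and TNFSF15 sit lowest on the resting array, while LTA, TNFSF14 and TNFSF8 stay within 0.29 log2 on their representative probe sets.

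The first comparison asked what Pam3CSK4 did to the ligand genes. TNF, the prototype inflammatory cytokine of the family, had by far the widest difference. Its single probe set read 6.61 log2 in resting cells, 9.80 after Pam3CSK4, 10.02 at 12 h and 9.84 at 24 h. The 3 arrays of treated cells thus lay within 0.22 log2 of each other and over 3 log2 above the resting one. The difference between Pam3CSK4 and resting was 3.19 log2, or 9.16-fold, the 69th largest of 13410 genes. TNFSF13B read 9.34 in resting cells, 10.69 after Pam3CSK4, 11.47 at 12 h and 10.83 at 24 h on its representative probe set, and was 2.56-fold higher with Pam3CSK4 than at rest. Its other probe set read 8.10, 9.42, 9.83 and 9.57 in the same order of conditions. The 2 probe sets differed by 1.35 and 1.32 log2 between Pam3CSK4 and resting, so both were past 2-fold.

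TNFSF10 (TRAIL), which can trigger death through its death-domain receptors, was the remaining ligand past 2-fold. It read 7.62 in resting cells, 8.70 after Pam3CSK4, 8.89 at 12 h and 8.82 at 24 h. Its 3 probe sets differed by 1.05 to 1.14 log2 between Pam3CSK4 and resting, and the representative one by 2.11-fold. Thus 3 of 10 ligands were at least 2-fold higher and 0 lower, where 4.14% of all genes passed that size upward and 1.71% downward. The ligands had a median difference of 0.78 log2, against -0.05 over all 13410 genes.

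A further 3 ligands lay between 1.5-fold and 2-fold higher. TNFSF13 (APRIL) read 7.50 at rest, 8.31 with Pam3CSK4, 8.42 at 12 h and 8.32 at 24 h, a difference of 0.81 log2 between Pam3CSK4 and resting. That probe set carries the suffix _x_at, which marks probes that may bind related transcripts. Of 3 probe sets that name TNFSF13 together with its read-through transcript TNFSF12-TNFSF13, the differences were 0.55, 0.61 and 0.65. The fourth shared probe set, which also names TNFSF12, stayed under the filter level on every array. TNFSF9, a co-stimulatory ligand for T cells, read 6.89 at rest, 7.68 with Pam3CSK4, 7.93 at 12 h and 7.75 at 24 h, a difference of 0.79. TNFSF15, a ligand of the death-domain receptor TNFRSF25, read 5.85 at rest, 6.62, 6.88 and 6.52. At rest it was thus under the filter level, which makes the size of its difference of 0.77 depend on background, and its other probe set lay between 3.86 and 3.98 on every array. At 1.5-fold, 6 of 10 ligands were higher and 0 lower, against 7.58% and 5.89% of all genes. That count includes TNFSF15, which reached the filter level only on the arrays where it was higher.

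The lymphotoxins and the remaining ligands, which lymphocytes are known to express, showed no such step. LTB, the membrane anchor of the lymphotoxin heterotrimer, read 7.9997 at rest, 8.33 with Pam3CSK4, 7.88 at 12 h and 8.30 at 24 h, a difference of 0.33 between Pam3CSK4 and resting. LTA, the soluble lymphotoxin, read 6.60, 6.50, 6.63 and 6.34 in the same order of conditions, so its arrays spanned 0.29 log2. TNFSF14 (LIGHT), a ligand of the lymphotoxin beta receptor and of TNFRSF14, read 7.45, 7.35, 7.49 and 7.32. Its other probe set read 6.60 at rest and 6.12 with Pam3CSK4, a difference of -0.48 that took it under the filter level. TNFSF8, the ligand of the CD30 receptor, read 6.41, 6.30, 6.43 and 6.27, and both of its other probe sets lay between 3.38 and 3.81 on every array. Low values of this kind do not establish that a transcript was present, and detection calls were not used here.

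On their representative probe sets LTA, TNFSF14 and TNFSF8 had the same order of arrays: 12 h highest, then resting, Pam3CSK4 and 24 h. That is also the order of the array medians over all probe sets, which were 6.22 at 12 h, 6.19 at rest, 6.18 with Pam3CSK4 and 6.17 at 24 h. Among the 4040 genes of mean level no higher than that of TNFSF14, 8.29% showed this order, and the part of the array distributions in these 3 profiles was not tested. The order of TNF, TNFSF13B, TNFSF10, TNFSF13 and TNFSF9 was 12 h, 24 h, Pam3CSK4 and resting from high to low, which 7.69% of the 13410 genes showed. The steps within it could be small: between 12 h and 24 h TNFSF10 differed by -0.07 log2 and TNF by -0.17. The order was not shared by all probe sets of TNFSF10, since one was highest at 24 h and another was lower at 24 h than with Pam3CSK4. Nor did all probe sets shared by TNFSF13 and its read-through transcript have it. The other probe set of TNFSF14 was highest at rest and lowest with Pam3CSK4, and those of TNFSF8 lay under the filter level.

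The stretches upstream of the gene starts are shown for the 3 ligands past 2-fold and for LTA, which lies directly beside TNF on the chromosome and differed by -0.10 log2. Each is the 250 bases before a RefSeq start, from assembly GRCh38.p14, read 5′ to 3′ on the gene's strand. A start was found for 9 of 10 ligands, and TNFSF8 was not matched. Capitals mark 3 sets of letters searched on both strands, with overlaps allowed: GGGNNNNNCC, a loose form of the NF-kB site, GAAANNGAAA, the core of the interferon-stimulated response element, and TATAAA. They were found in 54.4%, 3.02% and 10.7% of the 35116 upstream windows of the table. The windows are chr6:31575315-31575564 (plus strand) for TNF, chr6:31572039-31572288 (plus strand) for LTA, chr3:172523431-172523680 (minus strand) for TNFSF10 and chr13:108269468-108269717 (plus strand) for TNFSF13B.
TNF: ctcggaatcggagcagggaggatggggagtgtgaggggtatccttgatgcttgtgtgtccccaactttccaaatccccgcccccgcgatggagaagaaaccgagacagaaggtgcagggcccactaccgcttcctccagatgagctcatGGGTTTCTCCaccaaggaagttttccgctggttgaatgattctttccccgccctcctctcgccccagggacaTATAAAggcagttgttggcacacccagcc
LTA: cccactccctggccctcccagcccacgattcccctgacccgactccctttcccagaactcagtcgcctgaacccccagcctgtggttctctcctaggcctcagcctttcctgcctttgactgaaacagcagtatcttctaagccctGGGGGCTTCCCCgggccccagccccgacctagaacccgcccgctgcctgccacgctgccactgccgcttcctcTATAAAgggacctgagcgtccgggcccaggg
TNFSF10: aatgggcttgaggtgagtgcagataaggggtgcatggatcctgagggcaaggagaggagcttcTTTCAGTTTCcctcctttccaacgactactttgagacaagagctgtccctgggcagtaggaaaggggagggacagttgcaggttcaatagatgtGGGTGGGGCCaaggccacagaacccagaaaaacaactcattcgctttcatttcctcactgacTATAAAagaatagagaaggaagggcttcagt
TNFSF13B: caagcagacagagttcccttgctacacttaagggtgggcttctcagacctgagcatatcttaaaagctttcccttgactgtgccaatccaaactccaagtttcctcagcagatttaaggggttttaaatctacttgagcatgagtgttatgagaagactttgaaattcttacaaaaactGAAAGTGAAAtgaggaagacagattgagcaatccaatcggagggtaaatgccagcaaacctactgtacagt

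In the TNF window the loose NF-kB letters read GGGTTTCTCC, at -101 to -92 from the start, and TATAAA stood at -29 to -24. LTA held the same pair at the downstream one of its 2 starts, with 3 overlapping NF-kB matches between -104 and -93 and TATAAA at -31 to -26. The window of its upstream start held 1 NF-kB match and no TATAAA. The interferon-type letters were in neither. TNFSF10 held all 3, the interferon-type letters on the opposite strand at -187 to -178, the loose NF-kB letters as GGGTGGGGCC at -93 to -84 and TATAAA at -31 to -26. The interferon-type letters stood in TNFSF13B too, as GAAAGTGAAA, at -71 to -62 from the downstream one of its 2 starts. The window of its upstream start held none of the 3. TNFSF9, whose window is not shown, held all 3 as well, the interferon-type letters as GAAACGGAAA at -194 to -185. These matches are letters in a window, and binding was not measured.

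**Figure D2:**
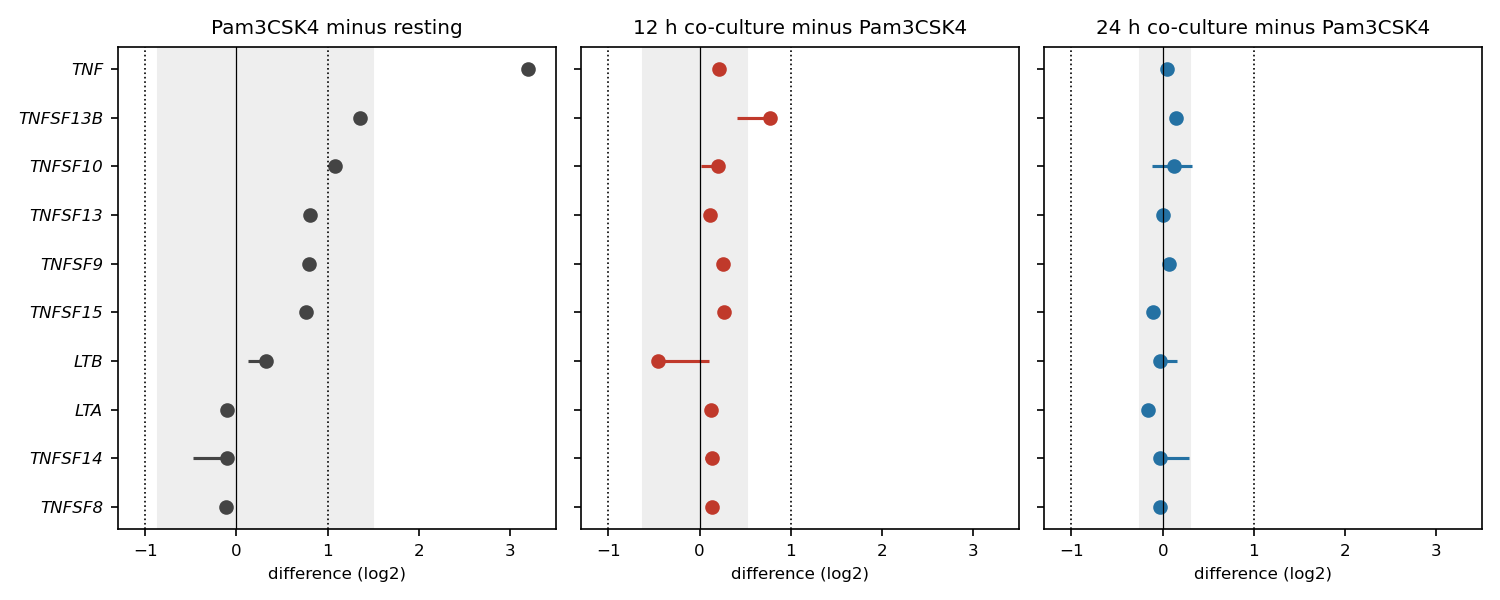
Differences between arrays (log2) for the 10 ligands in 3 comparisons; points are the representative probe set and bars span all probe sets of the gene that reached the filter level. Grey bands hold the central 95% of the 13410 genes and dotted lines mark 2-fold. Of the points, TNF lies outside the band with Pam3CSK4 at 3.19, TNFSF13B does at 12 h at 0.78, and none does at 24 h. The bar of TNFSF10 at 24 h reaches 0.32, past the band edge of 0.30.

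The 12 h co-culture was then set against Pam3CSK4 alone, which leaves particles and time together. TNFSF13B differed most, by 0.78 log2 or 1.71-fold, the 122nd largest difference of 13410 genes, and by 0.41 on its other probe set. It was the only ligand outside the range that held the central 95% of genes, -0.62 to 0.52. No ligand was at least 2-fold different, where 0.41% of all genes were higher and 0.35% lower. At 1.5-fold TNFSF13B alone was higher, against 1.9% of genes, and 0 ligands were lower, against 2.86%. For TNF the difference was 0.22, for TNFSF15 0.26, for TNFSF9 0.26 and for TNFSF10 0.20, with 0.02 on another TNFSF10 probe set.

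Though small, the differences at 12 h had mostly 1 sign. Of 10 ligands 9 were above their Pam3CSK4 value, and the median was 0.17, against -0.05 over all genes and 41.1% of genes above 0. The exception, LTB, stood at -0.45 on its representative probe set and at 0.11 on the other, so its direction rested on the probe set. On their representative probe sets the same 9 ligands were highest at 12 h among the 4 arrays. So were 24.8% of the 13410 genes and 35.2% of the 4040 at or under the mean level of TNFSF14. Another TNFSF10 probe set was highest at 24 h, at 8.93 log2, and the other TNFSF14 probe set at rest, at 6.60. With 1 array at 12 h, a property of that array and an effect of the co-culture cannot be told apart. In total RNA of a whole culture, a change in the share of cells that express a ligand and a change per cell cannot be told apart either. Any RNA carried by the particles cannot be told apart from that of the cells on the co-culture arrays.

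At 24 h the ligands lay close to the array of Pam3CSK4 alone. This comparison shares the Pam3CSK4 array with the one at 12 h. The differences ran from -0.16 for LTA to 0.14 for TNFSF13B, with a median of -0.01 for the ligands and for all genes alike. No ligand was 1.5-fold different, where 0.164% of genes were higher and 0.00746% lower at that size. At 2-fold those shares were 0.0298% and 0%. TNF stood 0.04 above and TNFSF13 0.01 above their Pam3CSK4 values. The 3 probe sets of TNFSF10 ranged from -0.11 to 0.32 and both of TNFSF14 from -0.03 to 0.28, so that the spread over probe sets of a gene was as wide as the differences themselves.

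Between the co-cultures, 9 of 10 ligands were lower at 24 h than at 12 h on their representative probe sets. The median was -0.17 against 0.04 over all genes, of which 57.7% were above 0. Another probe set stood at 0.24 for TNFSF10 and at 0.23 for TNFSF14, so their direction rested on the probe set. This comparison shares the 12 h array with the count of 9 ligands above Pam3CSK4, so the counts are not independent. TNFSF13B was 1.55-fold lower at 24 h, the 147th lowest difference of 13410, and by -0.26 log2 on its other probe set. No ligand was 2-fold different, where 0.224% of genes were at least 2-fold lower and 0.343% higher. At 1.5-fold TNFSF13B alone was lower, against 1.38% of genes, and 0 ligands were higher, against 3.14%. TNFSF15 stood at -0.37, LTA at -0.29 and LTB at 0.43, with 0.05 on its other probe set.

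The receptors of the 10 ligands were read on the same arrays. Of 16 listed, 12 were measured and 3 were at least 2-fold higher with Pam3CSK4 than at rest, with 0 lower and a median of 0.08, where 4.14% of all genes were higher and 1.71% lower by that size. TNFRSF9, the receptor of TNFSF9 and an activation marker, went from 5.41 to 8.70 log2. Its resting value was under the filter level, and over its 3 probe sets the difference ran from 0.87 to 3.29. TNFRSF1B, the TNF receptor without a death domain, went from 8.67 to 10.65, and TNFRSF10B, a death receptor of TNFSF10, from 8.55 to 9.95, with 0.61 to 1.40 over 3 probe sets. TNFRSF1A, the TNF receptor with a death domain, stood at -0.14, and the TNFSF13B receptors TNFRSF13B and TNFRSF13C at 0.02 and -0.03. These last 3 were named after their values were seen. At 12 h 0 of the 12 differed 2-fold from Pam3CSK4, with LTBR at -0.32 and TNFRSF10A at -0.30, and at 24 h again 0, with TNFRSF14 at 0.14 and TNFRSF10A at 0.13. Of all genes 0.41% were higher and 0.35% lower by that size at 12 h, and 0.0298% and 0% at 24 h. With shares so small, a count of 0 in a short list says little about its genes. The direction rested on the probe set for LTBR at 12 h, with -0.32 to 0.23, and for TNFRSF10A at 24 h, with -0.26 to 0.13.

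Among 8 other ligands of the family only CD70 and EDA were measured. CD70, the ligand of CD27, read 10.79 log2 at rest, 11.83 with Pam3CSK4, 11.87 at 12 h and 11.89 at 24 h, so it was past 2-fold with Pam3CSK4 and within 0.06 log2 thereafter. EDA stood at -0.21 with Pam3CSK4, -0.06 at 12 h and 0.10 at 24 h, and its other probe set at 0.09, 0.28 and -0.0057, each of the opposite sign. Of 11 other measured members of the TNF receptor superfamily, 1 was at least 2-fold higher with Pam3CSK4, beside 4.14% of all genes. This was CD40, at 1.01, with 1.01 to 2.53 over 4 probe sets. At 12 h 0 of the 11 were 2-fold different, where 0.41% of all genes were higher and 0.35% lower. The leading ones were TNFRSF21, a death-domain receptor, at 0.66 and TNFRSF11A, the receptor of RANK ligand, at 0.63, and at 24 h they stood at 0.29 and 0.45. TNFRSF11A read 5.11 at rest, 5.68 with Pam3CSK4, 6.30 at 12 h and 6.13 at 24 h, so it reached the filter level only at 12 h and the size of its differences depends on background.

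Of the genes whose proteins release or process the ligands, all 8 listed were measured, and 1 was at least 2-fold higher with Pam3CSK4, with a median of 0.02, where 4.14% of all genes were higher by that size. This was RHBDF2, an inactive rhomboid protein that helps the TNF-shedding protease ADAM17 to mature, which went from 7.26 to 8.72 log2. At 12 h 0 were 2-fold different, where 0.41% of all genes were higher and 0.35% lower. The largest differences were those of TIMP3, an inhibitor of ADAM17, at 0.61 and RHBDF2 at 0.24. TIMP3 stood at 0.08 at 24 h, and FURIN, which processes TNFSF13 and TNFSF13B, at -0.14.

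Of 13 measured regulators of TNF transcription and of its mRNA, 1 was at least 2-fold higher with Pam3CSK4, 0 were lower and the median was -0.02, beside 4.14% and 1.71% of all genes. ZFP36L1, which binds AU-rich mRNA, went from 5.31, under the filter level, to 9.04. At 12 h 1 of the 13 was at least 2-fold higher, where 0.41% of all genes were. This was MAP3K8, a kinase of the Toll-like receptor pathway to ERK that TNF production requires, which read 6.08 at rest, 6.60 with Pam3CSK4, 7.78 at 12 h and 6.98 at 24 h. Its 12 h difference was 1.18, and 0.53 on its other probe set. At 24 h 0 of 13 were past 2-fold, beside 0.0298% of all genes higher and 0% lower, with MAP3K8 at 0.38 and ZFP36L1 at 0.32.

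**Figure D3:**
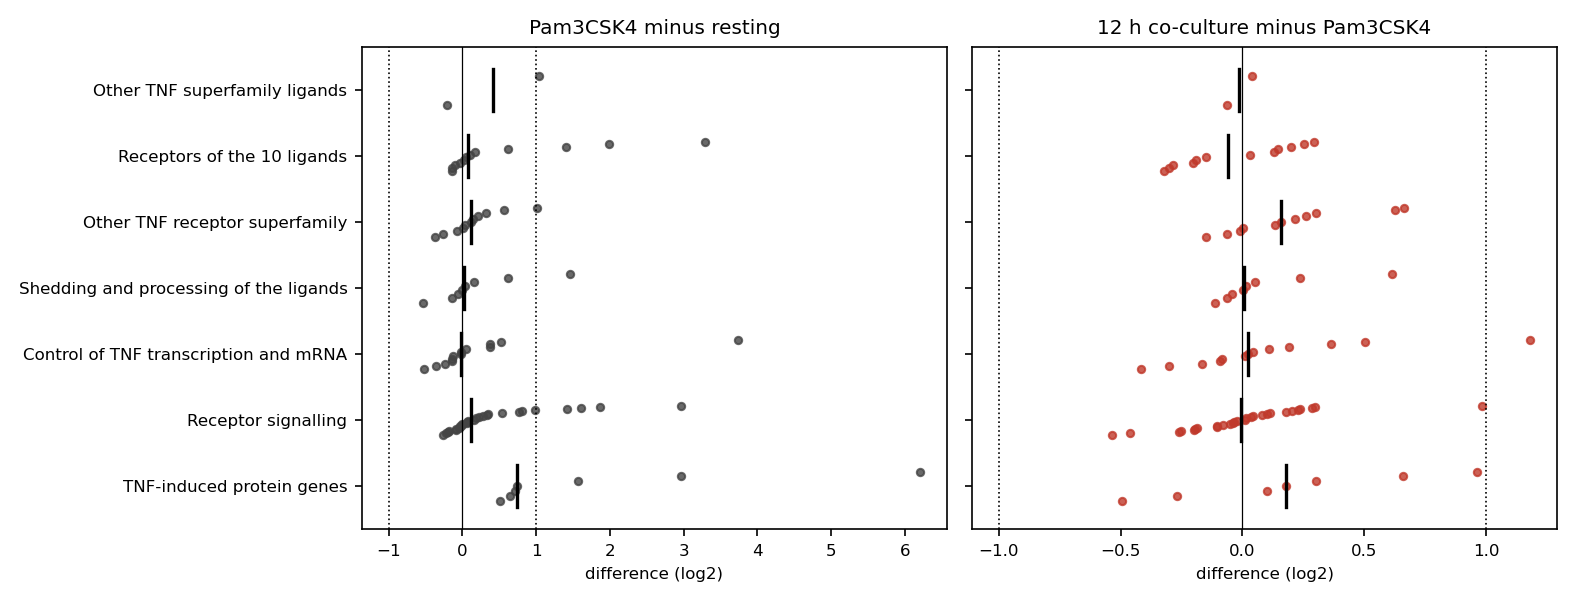
Differences (log2) of the measured genes of 7 lists around the ligands; each point is a gene, black bars are list medians and dotted lines mark 2-fold. The left panel sets Pam3CSK4 against resting and the right panel 12 h against Pam3CSK4, on separate axes. From 1 to 4 genes per list lie past 2-fold on the left, and 1 gene in all, MAP3K8 at 1.18, on the right. Of all genes 4.14% were higher by that size on the left and 0.41% on the right.

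Receptor signalling genes had 4 of 28 measured members at least 2-fold higher with Pam3CSK4, 0 lower and a median of 0.12, beside 4.14% and 1.71% of all genes. The deubiquitinase genes TNFAIP3 and CYLD differed by 2.97 and 1.87, CFLAR, the inhibitor of caspase-8 activation, by 1.61 and TNIP1, a partner of TNFAIP3, by 1.42. Their probe sets ranged from 2.97 to 3.41, from 0.12 to 1.87, from 0.30 to 1.68 over 12 probe sets, and from 0.31 to 1.42. At 12 h 0 of 28 were 2-fold different, where 0.41% of all genes were higher and 0.35% lower. The adaptor TRAF1 stood at 0.98, just under 2-fold, and the death adaptor FADD at -0.54. At 24 h TRAF5 led at 0.31, from a Pam3CSK4 value of 6.16 to 6.47, the only array on which it reached the filter level, and the kinase gene CHUK stood at 0.24. TRAF1 read 6.72 at rest, 7.53 with Pam3CSK4, 8.51 at 12 h and 7.60 at 24 h.

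Genes whose symbols begin with TNFAIP, 7 of them measured, had differences from 0.51 to 6.21 log2 with Pam3CSK4 and a median of 0.74. Of the 7, 3 were at least 2-fold higher and 0 lower, against 4.14% and 1.71% of all genes: TNFAIP6, a hyaluronan-binding protein, at 6.21 from a resting value of 4.91 under the filter level, TNFAIP3 at 2.97 and TNFAIP2 at 1.57. TNFAIP3 belongs to the signalling list too. The second probe set of TNFAIP2 differed by 0.04 with Pam3CSK4 and by 0.31 at 12 h. At 12 h 0 of 7 were 2-fold different, where 0.41% of all genes were higher and 0.35% lower. TNFAIP2 stood at 0.97 and TNFAIP6 at 0.66, and at 24 h they stood at 0.04 and 0.09. TNFAIP8L2 stood at -0.12 at 24 h.

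Between 12 h and 24 h no gene of these lists was 2-fold different, where 0.343% of all genes were higher and 0.224% lower at 24 h. TNFAIP2 stood at -0.93, TRAF1 at -0.91, MAP3K8 at -0.80, CHUK at 0.70, TNFRSF18 at -0.57, TNFAIP6 at -0.57, TIMP3 at -0.53 and LITAF at -0.53. TNFRSF4 stood at -0.46, TNFRSF10A at 0.43, TNFRSF9 at -0.33, RHBDF2 at -0.25, EDA at 0.16 and CD70 at 0.02. On other probe sets the difference was -0.08 for MAP3K8, -0.21 for TNFAIP2 and -0.28 for EDA.

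For the 5 ligands that spanned at least 1 log2 over the 4 arrays, the 3 genes of closest profile were taken outside the family list, by root mean square distance after centring each gene on its own mean. Closest to TNF were TNFRSF9, at a distance of 0.064 log2, NFKBIZ at 0.065 and NFKBIA at 0.069, against a span of 3.41 for TNF. Closest to TNFSF13B were RIT1 at 0.037, HELZ2 at 0.046 and MT1M at 0.059. TNFSF10 was closest to PPFIBP2, RUFY3 and IL15RA, TNFSF9 to GM2A, GPR137B and FKBP15, and TNFSF15 to AGAP3, PAG1 and ZSWIM8, at 0.022 to 0.038. A profile of 4 arrays has few ways to differ, so that small distances describe these arrays only. The closest genes were chosen on these same values, so their likeness to a ligand follows from the choice. MT1M read 4.73 at rest and 5.99 with Pam3CSK4, under the filter level, and reached it only on the co-culture arrays. TNFRSF9 at rest, at 5.41, was under it too.

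**Figure D4:**
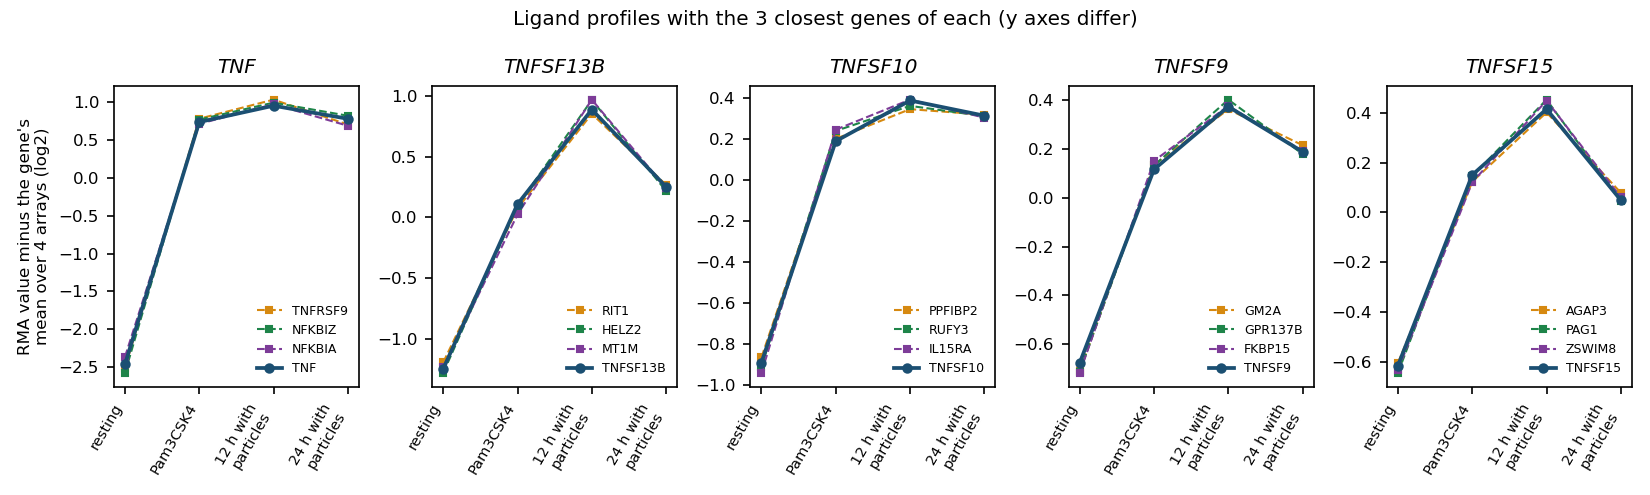
Centred profiles (RMA value minus the gene's mean over 4 arrays, log2) of the 5 ligands that spanned at least 1 log2, solid, with the 3 closest genes of each, dashed; y axes differ between panels and lines only join the points. TNF steps up once with Pam3CSK4, by 3.19, while TNFSF13B steps up again at 12 h, by 0.78. The dashed genes were chosen for closeness to these profiles, so their sharing of the steps follows from the choice.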

How the data were processed

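Total RNA of THP-1 cells was hybridised to 4 Affymetrix arrays, 1 per condition. The deposited table holds log2 values of 54675 probe sets, made by the authors with RMA in affy 1.28.1, per the submitters' processing notes. RMA forces arrays to a common distribution and compresses low differences. Values ran from 2.54 to 15.22. No array image values were used here, so precision is limited by the number of arrays.

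Arrays were grouped by their source labels. Probe sets were named through a platform annotation, 41091 of them by 1 gene, 1801 by several, with 11721 not listed, and identifiers were looked up in RefSeq. A gene was represented by its own probe set of highest mean. Genes reaching 6.19 on at least 1 array were compared as differences of 2 log2 values, counted at 2-fold. No p-value was computed.

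The ligands and 7 gene lists were chosen with earlier results of these data known. All ligands are named. From each list, genes past 2-fold are named, up to 8 per comparison, and otherwise the 2 largest differences. The counting was tested on simulated data. Alternatives were no filter, a 75th percentile filter, other ways to represent a gene, cyclic loess with 3 iterations (limma 3.58.1, R 4.3.3), and thresholds of 1.5-fold and 3-fold. Python 3.11.15, numpy 2.4.6, pandas 2.3.3 and matplotlib 3.10.9 were used.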

Additional observations from a re-analysis of the deposited data

How the results depend on the processing

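Of the ligand counts at 2-fold, 3 higher with Pam3CSK4 became 6 at a 1.5-fold threshold and 1 at a 3-fold threshold. At 1.5-fold, 1 ligand was higher at 12 h than with Pam3CSK4 and 1 was lower at 24 h than at 12 h, against 0 at 2-fold. The other settings kept each count within 1.5 times, although leaving out _x_at and _s_at probe sets removes TNF and TNFSF13, which then have no value. Of 144 single-gene alternatives 135 kept their sign and their side of 2-fold, and 9, all of LTB, TNFSF10 or TNFSF14 and all under 0.16 log2, changed sign from a difference that was under 2-fold. The largest shift was that of LTB at 12 h, from -0.45 to 0.11 on its other probe set. Cyclic loess put TNFSF13B at 0.89 at 12 h. Levels near 6.19 are near background, which limits LTA, TNFSF8 and TNFSF15 most. TNF at rest, at 6.61, was near it too, which limits the size of its difference with Pam3CSK4. No paired analysis was possible because each condition has 1 array.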

Other observations

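Several ligand genes lie side by side on their chromosomes, by the order of protein-coding genes in the RefSeq table, and neighbours differed in size with Pam3CSK4. On chromosome 6, TNF at 3.19 log2 lies between LTA at -0.10 and LTB at 0.33, with 0 protein-coding genes between them. On chromosome 19, TNFSF9 at 0.79, CD70 at 1.04 and TNFSF14 at -0.10 are consecutive. On chromosome 9, TNFSF15 at 0.77 is followed by TNFSF8 at -0.11. These are values of single arrays, the differences between neighbours were not tested, and the neighbours were set side by side after their values were seen.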
